A study of Mus musculus with 18 samples.

Results

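The m6A readers are proteins that bind N6-methyladenosine (m6A) in RNA, and 10 mouse genes for them were examined as m6A targets themselves: Ythdf1, Ythdf2, Ythdf3, Ythdc1, Ythdc2, Igf2bp1, Igf2bp2, Igf2bp3, Hnrnpa2b1 and Hnrnpc. A differential m6A peak was counted for a reader gene when the annotation in the deposited tables placed it in an exon or intron of that gene. It was also counted when the tables assigned it to the gene and its centre lay between the gene's start and end. By this rule, 29 of 40929 peaks belonged to 9 of the 10 genes, and 9262 of all 21900 protein-coding genes also held at least 1 peak. Igf2bp1 held none in the 3 tables examined for it. For the peaks lower in LPS than in Veh, chromosomes 1 to 9 alone were used, and Ythdc2, Igf2bp1, Igf2bp2 and Hnrnpc lie on other chromosomes.

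Pregnant wild-type ICR mice, 8 weeks old, received saline (Veh), LPS or melatonin and LPS (Mel+LPS) by intraperitoneal injection, and the uterus was taken on day 5 of pregnancy. The daily injection on days 1 to 4 was saline in the Veh and LPS groups and melatonin at 10 mg/kg in the Mel+LPS group. LPS, the bacterial lipopolysaccharide that drives inflammation, followed at 0.5 mg/kg, 30 min after that injection, on days 3 and 4 in the LPS and Mel+LPS groups. The paper gives saline with ethanol as the solvent of melatonin. It calls the control injection vehicle and does not say whether this held ethanol. Each group had 3 biological replicates, and for each of these RNA was sequenced before and after immunoprecipitation with an m6A antibody (18 libraries). The question was which m6A sites differed between LPS and Veh, and between Mel+LPS and LPS. Peaks are called LPS-up or LPS-down when the tables list them as up or down in LPS against Veh, and Mel+LPS-up or Mel+LPS-down when they are listed as up or down in Mel+LPS against LPS. The deposited tables give 1 score per peak and comparison, the log10 likelihood ratio from MACS2, which weighs the reads for a difference between treatments and is not a fold change. There is no value per replicate and no read depth, so no score has a replicate error and no test between groups could be made. The tables hold neither RNA levels nor unchanged peaks, so the markers of uterine cells could not be checked. A change in m6A per transcript, in RNA per cell and in the number of cells of a type cannot be told apart from these values.

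m6A is placed on nuclear RNA by the METTL3-METTL14 methyltransferase, mostly at adenosines within the DRACH motif (A, G or T, then A or G, then A and C, then A, C or T), and is removed by FTO and ALKBH5. YTHDF1, YTHDF2 and YTHDF3 bind it in the cytoplasm and act on translation and decay, YTHDC1 binds it in the nucleus and acts on splicing and export, and YTHDC2 is an RNA helicase known for its role in meiosis. The IGF2BP proteins stabilize bound mRNAs, and HNRNPA2B1 and HNRNPC are nuclear proteins of RNA processing whose binding is influenced by m6A.

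The sites that returned in both comparisons are shown first, since the results turn on them. Each stretch of 30 bases surrounds a DRACH motif, in capitals, within the overlap of both peaks. Where several lay there, GGACT was taken first, then another GGAC, then the one nearest to the middle. It is read 5′ to 3′ on the strand of the gene from GENCODE transcripts, with T for U and with GRCm38 coordinates. Only exon bases of the overlaps were searched for motifs. These were 40 of the 138 shared bases in Ythdc1, and 130 of the 254 at chr3:16205295-16205548 in Ythdf3. These stretches lay in LPS-down peaks that overlapped Mel+LPS-up peaks:
Ythdf1, chr2:180911516-180911545, minus strand, exon 4 of 5: caagcataacatGGACAttggtacttggga
Ythdf1, chr2:180911192-180911221, minus strand, exon 4 of 5: tgcccacagctaTAACCctaaagagttcga
Ythdf1, chr2:180910955-180910984, minus strand, exon 4 of 5: gaagtcccctgtGGACTacggcaccagcgc
Ythdf2, chr4:132204994-132205023, minus strand, exon 4 of 5: tggaacttgggaTAACAagggtcctgtggc
Ythdc1, chr5:86815694-86815723, plus strand, exon 2 of 17: aatccagagagtGAACAagataaaaatgag

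These stretches lay in LPS-up peaks that overlapped Mel+LPS-down peaks:
Ythdf3, chr3:16205361-16205390, plus strand, exon 4 of 5: ctcaatctttgaTGACTttgcacattatga
Igf2bp2, chr16:22061718-22061747, minus strand, exon of an isoform with a retained intron: ccctgacctcagGGACAggaaactgttggt

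The stretch in peaks of Ythdf3 that were up in both comparisons was also in exon 4:
Ythdf3, chr3:16204911-16204940, plus strand, exon 4 of 5: agactttgattgGAACCtgaagaatggacg

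The shared site of Hnrnpa2b1 had no DRACH in the 44 exon bases among its 134 shared bases. A motif marks where m6A could lie and is not a measured site, since a peak spans 100 to 563 bases.

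The reader genes had more Mel+LPS-up peaks than peaks of any other table. Among all peaks these were also the most numerous, with 13436 Mel+LPS-up, 12023 LPS-up and 9211 Mel+LPS-down peaks. The LPS-down peaks used, on chromosomes 1 to 9 alone, were 6259. There were 14 Mel+LPS-up peaks in 7 of the 10 reader genes (70%), and 25.6% of all protein-coding genes held one by the same rule. The 4 Mel+LPS-down peaks were in 4 of the 10 genes (40%, against 15.3% of all protein-coding genes). The 5 LPS-up peaks were in 4 of the 10 genes (40%, against 20.1%). The deposited LPS-down table was used on chromosomes 1 to 9, where it is complete and where 6 of the readers lie. There, the 6 LPS-down peaks were in 4 of those 6 genes (66.7%, against 22% of the protein-coding genes of these chromosomes). Among protein-coding genes that held a peak in at least 1 table, the shares in the same order were 60.6%, 36.2%, 47.6% and 49.2%. Among genes whose transcript length was in the range of the readers (1662 to 8378 bases) they were 31.5%, 18.2%, 24.5% and 25.6%. The readers were closer to the genes with a peak than to all protein-coding genes in each table.

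On chromosomes 1 to 9, where both directions can be compared, 3 of 9 reader peaks were up in LPS vs Veh (33.3%), and 49.8% of all 12479 peaks were. In Mel+LPS vs LPS, 13 of 15 reader peaks were up (86.7%), and 60% of all 11851 peaks were. The peaks of 1 gene are not independent of each other, and 15 of the 29 reader peaks were in the 3 Ythdf genes.

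The scores of the reader peaks were mostly below the median of their table. The median of the reader peaks was 1.9 for LPS-up peaks (range 1.2 to 3.27), and that of all peaks in the table was 2.88. For LPS-down peaks it was 2.02 (1.44 to 13.16, all peaks 2.65), and for Mel+LPS-down peaks 1.75 (1.27 to 3.46, all peaks 3.09). For Mel+LPS-up peaks it was 2.32 (1.3 to 10.13, all peaks 2.17), and 8 of the 14 exceeded the median of that table. In each of the other 3 tables, 1 reader peak did.

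**Figure D1:**
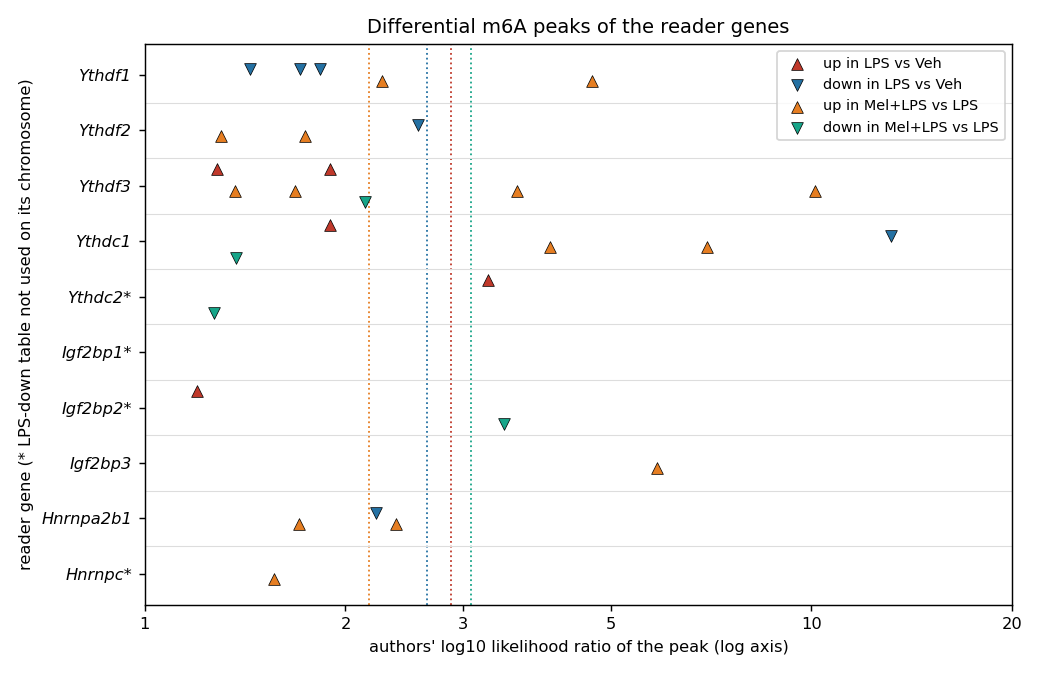
Log10 likelihood ratio (horizontal log axis) of the 29 differential peaks of the reader genes (rows), with triangles pointing up for peaks up and down for peaks down in each comparison. Dotted lines in the same colours mark the median of all peaks in each table (2.17 to 3.09), and most reader peaks lie left of the line of their table, while Ythdc1 (13.16) and Ythdf3 (10.13) lie far to the right.

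Ythdf1, whose protein is known to promote the translation of m6A-marked mRNAs, was down at 3 sites in LPS vs Veh and up at both of its sites in Mel+LPS vs LPS. All 5 peaks lay in exon 4 of 5, which holds 90.5% of the coding sequence. The peaks down in LPS vs Veh had scores of 1.44 (chr2:180911433-180911573, codons 256 to 303), 1.71 (chr2:180911147-180911275, codons 355 to 398) and 1.83 (chr2:180910884-180911016, codons 442 to 486). All were below the median of their table. In Mel+LPS vs LPS, the peak over codons 261 to 301 had a score of 2.27 (chr2:180911439-180911559). A second peak of 563 bases over codons 346 to 533 had 4.68 (chr2:180910741-180911303), higher than 79.8% of the peaks in that table. It spanned both of the other LPS-down stretches, so each of these 3 sites returned in the other direction in the second comparison. A further LPS-down peak in the 3′UTR of Ythdf1, assigned to Mir124a-3 and so outside the rule (chr2:180904356-180904472, 1.28), had no Mel+LPS-up counterpart.

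Ythdf2, which is known to direct m6A-marked mRNAs to decay, had 1 peak down in LPS vs Veh, with a score of 2.57 (chr4:132204961-132205150, codons 233 to 296). It was up in Mel+LPS vs LPS at 1.74 (chr4:132204881-132205033, codons 272 to 323), with 73 bases in common with the first peak. A further Mel+LPS-up peak, over codons 138 to 201, had a score of 1.30 (chr4:132205246-132205434) and no counterpart in LPS vs Veh. All 3 lay in exon 4 of 5.

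Ythdf3, known to act together with the other YTHDF proteins, held 7 peaks, the most of any reader, and its directions were mixed. In LPS vs Veh both of its peaks were up, with scores of 1.28 (chr3:16204879-16205093, codons 397 to 468) and 1.90 (chr3:16205291-16205548, codons 534 to 578). The second of these, at the 3′ end of exon 4, overlapped a Mel+LPS-down peak of 2.14 (chr3:16205295-16205611), with 254 bases in common. Of these 254 bases, 130 were on exons, and the rest lay in the intron that follows. The first LPS-up peak shared 116 bases with a peak that was up again in Mel+LPS vs LPS, at 1.68 (chr3:16204638-16204994, codons 316 to 435). The Ythdf3 transcript thus held a site with opposite directions and, 5′ of it in the same exon, overlapping peaks that were up in both comparisons. The overlap of these last peaks was partial, with 54% of the LPS-up and 32.5% of the Mel+LPS-up peak and centres 170 bases apart.

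The other Ythdf3 peaks were up in Mel+LPS vs LPS alone. The peak in the 5′UTR had a score of 10.13, higher than 97.3% of the peaks in its table (chr3:16183451-16183591). It covered 70 bases of exon 1, up to codon 8, and ran on into the intron. A peak in the 3′UTR, centred 307 bases after the stop codon, had 3.62 (chr3:16214208-16214363), and a peak over codons 72 to 118 had 1.37 (chr3:16203905-16204043). The 3′UTR peak was the only one in that class among the 29.

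The 3 Ythdf genes share their structure, with a single long coding exon, and 13 of their 15 peaks lay in it. Among these, both peaks of the Ythdf3 site with opposite directions ran on into the intron. Peaks covered 46.3% of the 1521 bases of exon 4 in Ythdf1, 29% of 1584 in Ythdf2 and 45.6% of 1599 in Ythdf3. Of the DRACH motifs of this exon, 16 of 34 in Ythdf1, 13 of 36 in Ythdf2 and 13 of 38 in Ythdf3 were under a peak. Their coding sequences were 69.7% identical between Ythdf1 and Ythdf2 and 71.3% between Ythdf1 and Ythdf3 over the aligned bases, so positions could be compared between the genes. In LPS vs Veh, a peak of Ythdf1 and one of Ythdf2 that were both down covered the same 90 aligned bases, from base 767 to 856 of the Ythdf1 coding sequence. At bases 1108 to 1193, the Ythdf1 peak was down (1.71) and the Ythdf3 peak was up (1.28). In Mel+LPS vs LPS, 5 pairs of peaks covered the same aligned bases, and 4 of them were up in both genes. In the other pair, at bases 1524 to 1599, Ythdf1 was up (4.68) and Ythdf3 was down (2.14). The pairs up in both genes are not independent, since 1 Ythdf3 peak (1.68) recurs among them, over 187, 32 and 17 aligned bases.

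The first stretch of Ythdf1 is shown with the aligned stretches of the other genes, since it lies in the bases where the LPS-down peaks of Ythdf1 and Ythdf2 met. The bases aligned to the motif of Ythdf1 are in capitals in each:
Ythdf1, chr2:180911516-180911545, minus strand: caagcataacatGGACAttggtacttggga
Ythdf2, chr4:132205012-132205041, minus strand: aaagcataacatGGATAttggaacttggga
Ythdf3, chr3:16204500-16204529, plus strand: aaaacacaacatGAATAttggaacttggga

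Of the 30 bases, 27 were the same in Ythdf2 and 24 in Ythdf3, but the 5 bases in capitals are a DRACH motif in Ythdf1 only. The bases in lower case hold other DRACH motifs: TAACA in Ythdf1 and Ythdf2, AAACA in Ythdf3, and GAACT in Ythdf2 and Ythdf3. The stretch thus has a DRACH motif in all 3 genes. The overlapping Ythdf2 peaks of both comparisons reached into this stretch, and no Ythdf3 peak did. The GGACT of Ythdf1 in the third of its shared sites was also compared:
Ythdf1, chr2:180910955-180910984, minus strand: gaagtcccctgtGGACTacggcaccagcgc
Ythdf2, chr4:132204400-132204429, minus strand: gaaatctgctgtGGACTacaacacatgtgc
Ythdf3, chr3:16205127-16205156, plus strand: gaagtctgttgtAGACTataatgcttatgc

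Here all 3 genes had a DRACH motif at the aligned bases, with 22 of 30 bases the same in Ythdf2 and 17 in Ythdf3. Only Ythdf1 had a peak over it in these tables.

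**Figure D2:**
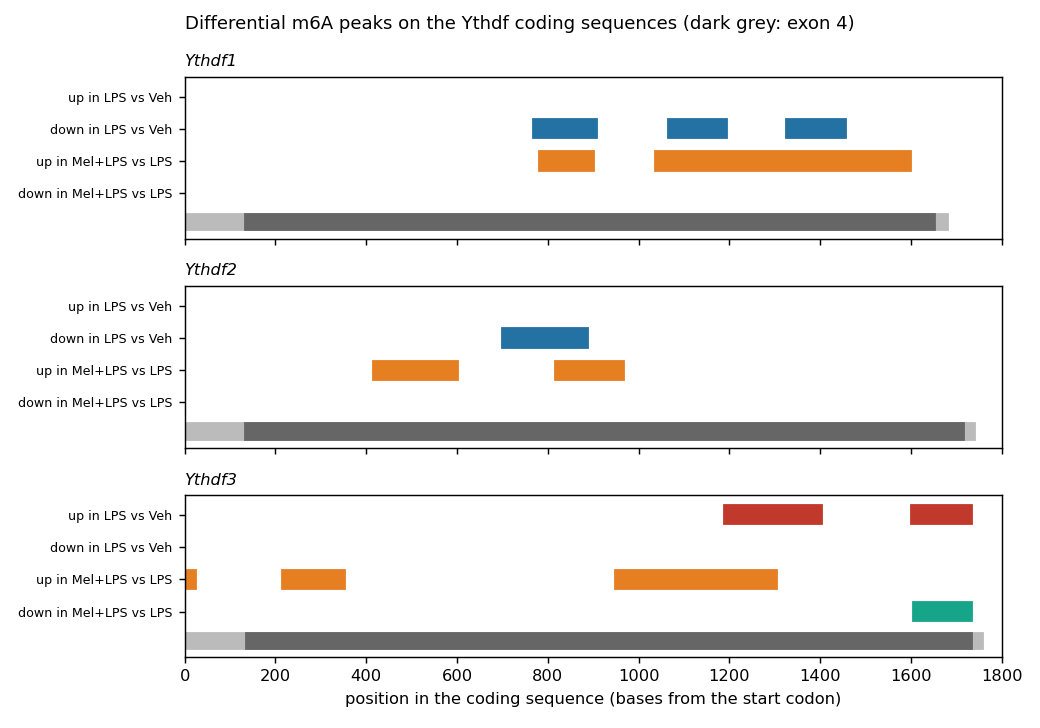
Differential peaks on the coding sequences of Ythdf1, Ythdf2 and Ythdf3 (horizontal axis, bases from the start codon), with 1 row per table and the coding sequence below in grey, exon 4 dark. The blue LPS-down peaks of Ythdf1 and Ythdf2 lie over orange Mel+LPS-up ones, while Ythdf3 has red LPS-up peaks, the second of them over a green Mel+LPS-down one, and its 3′UTR peak is outside the plot.

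Ythdc1, the nuclear YTH reader, had the highest score among the reader peaks. Its LPS-down peak had a score of 13.16, higher than 97.6% of the peaks in that table (chr5:86815691-86815890). The same site was up in Mel+LPS vs LPS at 6.97, higher than 91.4% of the peaks there (chr5:86815676-86815828), and 138 bases were in both peaks. On the coding transcript, both peaks covered the 3′ end of exon 2 of 17, where 40 bases of the first peak reached from codon 31 to 44, and the rest of each peak lay in the intron that follows. A second Mel+LPS-up peak, in the next exon over codons 48 to 122, had a score of 4.05 (chr5:86816477-86816699). Farther 3′, Ythdc1 held peaks in the other directions, with lower scores. A Mel+LPS-down peak over codons 499 to 532 had 1.37 (chr5:86828012-86828111), and an LPS-up peak in an exon of another isoform had 1.90 (chr5:86828951-86829130). Ythdc1 was the only reader with a peak in each of the 4 tables.

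Ythdc2 had 1 LPS-up peak, with a score of 3.27 (chr18:44877763-44877889), the only reader peak of this table above the table's median. The tables name exon 26 of 30 for it, but 33 of its 127 bases were on exons and its centre was not. Its Mel+LPS-down peak was at the start of the gene, classed as promoter, at 1.27 (chr18:44828434-44828625). The peaks are far apart and were not counted as 1 site. Chromosome 18 is outside the range in which LPS-down peaks were used.

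Among the Igf2bp genes, Igf2bp2 held a site in both comparisons, Igf2bp3 a peak in 1 table and Igf2bp1 none, with LPS-down peaks not examined for Igf2bp1 and Igf2bp2. The Igf2bp2 LPS-up peak had a score of 1.20, higher than only 3.5% of the peaks of its table (chr16:22061717-22061892). The Mel+LPS-down peak had 3.46 (chr16:22061717-22061911), and both peaks began at the same base and had 176 bases in common. The site covers the 3′ end of exon 15 of 16 and the intron after it, which an isoform with a retained intron keeps as exon. The tables assigned both peaks to the neighboring gene Ndufa11b and named Igf2bp2 for the exon. The Igf2bp3 peak, up in Mel+LPS vs LPS at 5.86 (chr6:49097032-49097175), covered no exon of Igf2bp3. The tables assigned it to Igf2bp3 but named an intron of Malsu1 for it, a gene on the opposite strand, and the peaks carry no strand.

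Hnrnpa2b1 was down in LPS vs Veh at 2.22 (chr6:51466384-51466520) and up in Mel+LPS vs LPS at the same site at 1.70 (chr6:51466387-51466584), with 134 bases in common. This site lies over the intron between short coding exons, with 44 exon bases on the coding transcript. A further peak, for which exon 3 of 12 is named, was up in Mel+LPS vs LPS at 2.38 (chr6:51467064-51467228), with 44 of its 165 bases on exons and its centre off them. Hnrnpc had 1 peak up in Mel+LPS vs LPS, at 1.56, within an intron of the named transcript and on an exon of another isoform (chr14:52083985-52084084). The tables assigned it to Gm8586.

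**Figure D3:**
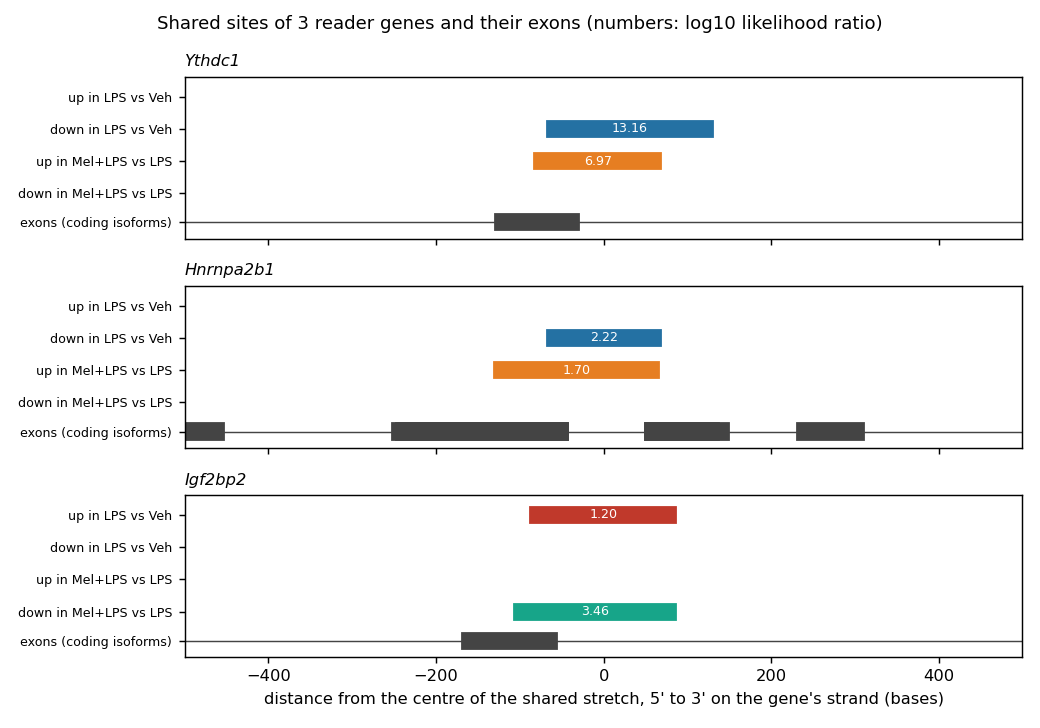
Peaks around the shared sites of Ythdc1, Hnrnpa2b1 and Igf2bp2 (horizontal axis, bases from the centre of the shared stretch, 5′ to 3′ on the gene's strand), with 1 row per table, the score written in each bar and the exons of coding isoforms below. In each gene the peaks of the 2 comparisons, opposite in direction, lie over each other and reach from an exon into an intron. In Hnrnpa2b1 both peaks cross the intron and reach the next exon.

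The reader sites were compared between tables by overlap of at least 1 base. All 6 LPS-down reader peaks overlapped a Mel+LPS-up peak, and 30.3% of all 6259 LPS-down peaks did. Of the 6, 3 remained when the overlap had to cover 50% of each peak, and 1, that of Ythdc1, when both scores had to be at least 2. In the other list, 5 of the 13 Mel+LPS-up reader peaks on chromosomes 1 to 9 were such sites, against 26.5% of all peaks. The sites were in 4 genes, Ythdf1, Ythdf2, Ythdc1 and Hnrnpa2b1, and 8.61% of all protein-coding genes on chromosomes 1 to 9 held a site of this kind (19.3% of those with a peak). In the opposite sense, 2 of 5 LPS-up reader peaks overlapped 2 of 4 Mel+LPS-down reader peaks, against 38.4% and 50.6% of all peaks. They were in Ythdf3 and Igf2bp2, and 8.29% of all protein-coding genes (19.6% of those with a peak) held a site of this kind. The same direction in both comparisons was found for 1 pair of reader peaks, in Ythdf3, where 2.3% of all LPS-up and 2.06% of all Mel+LPS-up peaks overlapped. No reader site was down in both, where 0.799% of all LPS-down and 1.06% of all Mel+LPS-down peaks overlapped. Both comparisons share the LPS libraries, so their directions are not independent. These counts were not tested, and they do not show a return to the Veh level, since Mel+LPS vs Veh was not analysed here.

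By the annotation in the tables, 24 of the 29 reader peaks (82.8%) were in exons, 1 in the 3′UTR (3.45%, Wilson 95% interval 0.611 to 17.2, counting error only), 1 in the 5′UTR, 2 in introns and 1 at a promoter. Among all 24229 peaks held by protein-coding genes under the same rule, 55.4% were in exons, 13.9% in the 3′UTR, 6.04% in the 5′UTR and 24.2% in introns. The class is wider than the position of the centre, which lay on a GENCODE exon of any isoform for 20 of the 29 reader peaks and in the coding part of the chosen transcript for 14. Peaks in the last part of a gene can be assigned to a neighbor, and 3 peaks of this kind in the 3′UTRs of Ythdf1 (LPS-down, 1.28), Ythdc1 (LPS-up, 1.44) and Igf2bp2 (Mel+LPS-down, 1.36) were outside the rule and are not in this count. Another 2 peaks assigned to Hnrnpa2b1 (LPS-down, 3.41, and Mel+LPS-up, 2.33) lay beyond its end, on an exon of Nfe2l3, and were also left out. In the 3351 exon bases under a reader peak, each counted once, DRACH occurred 19.4 times per 1000 bases. In the whole chosen transcripts of the 9 genes with a peak it occurred 19.6 times. Summed over the 28 peaks on exons, with bases in several peaks counted for each, it was 19.9 per 1000. The form GGAC occurred 14 times in the 3351 bases, 4.18 per 1000, and 3.14 times per 1000 in the whole transcripts. The whole transcripts take in all UTR bases and Igf2bp3, which had no exon base under a peak. The 3351 bases include exons of other isoforms of Ythdc1, Igf2bp2 and Hnrnpc. The densities thus come from sets of unlike composition. At least 1 DRACH was found in 24 of the 28 peaks.

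Other genes of the m6A pathway also held peaks. Of 14 genes for writers and erasers, 5 had an LPS-up peak, 2 of the 8 on chromosomes 1 to 9 an LPS-down peak, 8 a Mel+LPS-up peak and 4 a Mel+LPS-down peak. These are 35.7%, 25%, 57.1% and 28.6%, above the shares of all protein-coding genes (20.1%, 22%, 25.6% and 15.3%) and below those of genes with a peak (47.6%, 49.2%, 60.6% and 36.2%). The LPS-down share, 2 of 8 genes, was close to that of all protein-coding genes. None held a site shared between the comparisons, where 8.61% and 8.29% of all protein-coding genes held one of the opposite kinds. The highest scores were those of Virma, a subunit of the writer complex (Mel+LPS-up, 3.76), Fto, the eraser (LPS-down, 3.63, in an intron), and Cbll1, another subunit of the writer complex (LPS-up, 3.46). Of 20 other m6A-binding proteins and reader partners, 10 had an LPS-up peak, 5 of the 8 on chromosomes 1 to 9 an LPS-down peak, 14 a Mel+LPS-up peak and 5 a Mel+LPS-down peak. These are 50%, 62.5%, 70% and 25%, above all protein-coding genes in each table and below the genes with a peak in the Mel+LPS-down table.

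In this group, 8 genes held 9 shared sites. An LPS-down peak over a Mel+LPS-up peak was held by 3 of the 8 genes on chromosomes 1 to 9 (37.5%, against 8.61% of all protein-coding genes and 19.3% of those with a peak). An LPS-up peak over a Mel+LPS-down peak was held by 4 of the 20 (20%, against 8.29% and 19.6%). Fxr1, an RNA-binding paralog of the fragile X protein, had LPS-down peaks of 3.15 and 1.52 at its 2 sites and Mel+LPS-up peaks of 1.29 and 2.38 there. Rbm33, known as a partner of ALKBH5 (1.47 and 5.21), and Elavl1, the mRNA stabilizer HuR (7.1 and 8.13, in an intron), had the same directions. Cpsf6 (1.93 and 1.97), Srsf3 (1.73 and 4.24), Srsf10 (2.92 and 1.38) and Eif3a (1.16 and 1.25) had an LPS-up and a Mel+LPS-down peak, with the scores in that order. Fxr2 was up in both (2.08 and 1.26). Cnot1, a scaffold of the deadenylase complex that YTHDF2 recruits, had an LPS-up peak in its 5′UTR with a score of 9.6, not found in the other comparison.

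**Figure D4:**
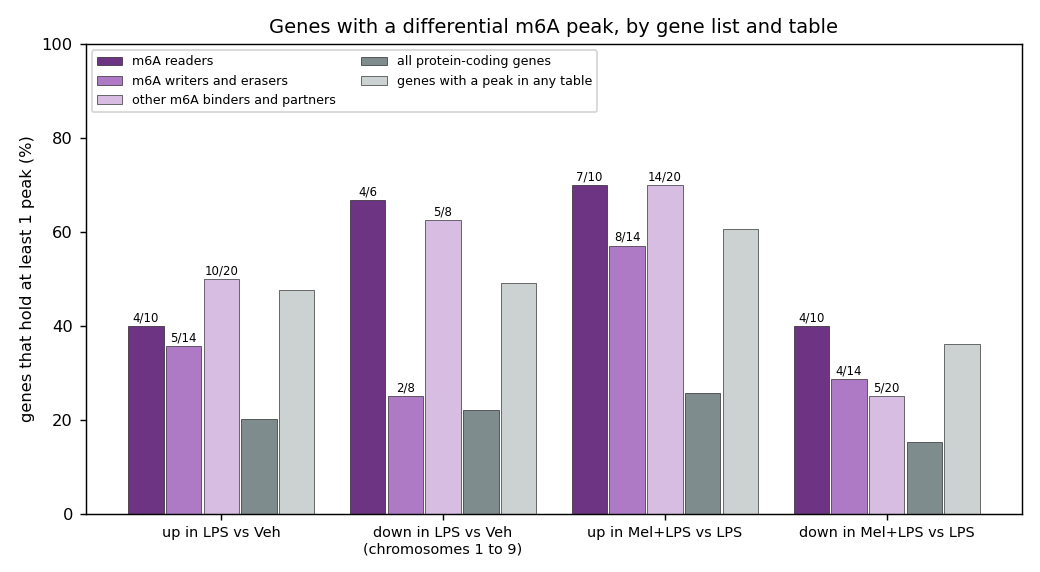
Percent of genes that held at least 1 differential peak in each of the 4 tables (vertical axis from 0), for the readers, the writers and erasers and the other binders and partners, with the genes counted above each bar, beside all protein-coding genes (dark grey) and those with a peak in at least 1 table (light grey). The readers exceed all protein-coding genes in every table (70% against 25.6% for Mel+LPS-up peaks). They lie nearer to the genes with a peak: 70% against 60.6% for Mel+LPS-up and 66.7% against 49.2% for LPS-down peaks. For Mel+LPS-down peaks it is 40% against 36.2%, and for LPS-up peaks 40% against 47.6%. These differences rest on few genes and were not tested.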

How the data were processed

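m6A-seq was made from uterine RNA of 18 libraries (input and immunoprecipitated, 3 replicates of Veh, LPS and Mel+LPS). After trimming (Fastp) and alignment to mm10, the build GRCm38 (STAR 2.5.2a), the authors found peaks by exomePeak2, tested differences by MACS2 3.4 and assigned genes by ChIPseeker 1.22.1. HOMER 4.10 is also named in the submitters' processing notes. The score in the deposited tables is the log10 likelihood ratio of MACS2, at least 1.01. How replicates and input were used in it is not given in the sources used here. The LPS-down table holds 6414 complete peaks and breaks off in chromosome 10, and the 6259 on chromosomes 1 to 9 were used.

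Peaks were assigned to genes by the stated rule, overlapped between tables and placed on GENCODE M21 transcripts, and all 10 readers were matched. The Ythdf coding sequences were aligned pairwise. The 10 readers, the 14 writers and erasers and the 20 other binders were chosen with earlier results of these data known. All 10 readers are named, and of the other lists the genes with a shared site or a score of at least 3. No test was made, since each peak has 1 score. Alternatives were scores of at least 2 or 3, other gene assignments, backgrounds, overlap rules and motif windows. Scripts were checked on simulated data. Python 3.11.15, numpy 2.4.6, pandas 2.3.3, Biopython 1.88 and matplotlib 3.10.9 were used.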

Additional observations from a re-analysis of the deposited data

How the results depend on the processing

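No paired analysis was possible because the tables hold 1 value per peak for all 3 replicates of a group, and for the same reason no replicate could be left out. Of 77 alternatives, 49 kept the value within 1.5 times or within its interval and 28 moved it. A score of at least 2 left 1 LPS-up (1 gene), 3 LPS-down, 8 Mel+LPS-up and 2 Mel+LPS-down reader peaks (2 genes). A score of at least 3 left 1 (1 gene), 1 (1 gene), 6 (4 genes) and 1 (1 gene) in the same order. With the centre required on a reference exon, 9 peaks were Mel+LPS-up and 2 genes held an LPS-down peak. Backgrounds of genes that held any peak were 47.6%, 49.2%, 60.6% and 36.2%. Of the 6 LPS-down reader peaks that overlapped Mel+LPS-up peaks, 3 remained with a reciprocal overlap of 50% and 1 with a score of at least 2. The 2 in the opposite sense fell to 0 at a score of at least 2. The pair up in both fell to 0 with the reciprocal overlap, with centres within 100 bases and with a score of at least 2. With only the highest-scoring peak of each gene, the median Mel+LPS-up score was 4.68. This choice favours high scores, so that median cannot be set against the median of all peaks. GGAC alone occurred 4.64 times per 1000 bases, summed over peaks. Counting each base once (DRACH 19.4 per 1000, against 19.9) was chosen after seeing the data. Depth is unknown, so the absence of a peak from a table does not show that a site was unchanged, and the lowest score listed was 1.01.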
